A study of Mus musculus with 14 samples.

Results

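Sodium, chloride and bicarbonate cross the ileal epithelium through a small set of transporters, and 10 genes of this set were followed: the sodium-proton exchangers Slc9a2 and Slc9a3, the scaffolds Slc9a3r1 and Pdzk1, the chloride-bicarbonate exchangers Slc26a3 and Slc26a6, the chloride secretion genes Cftr and Slc12a2, and the guanylin peptides Guca2a and Guca2b. They were taken by symbol from the 46855 genes of an expression table of whole mouse ileum, the last stretch of the small intestine, and all 10 were found. The 14 libraries came from wild-type C57BL/6N mice, an inbred strain. Untreated mice gave 4 libraries at postnatal day 24 (P24) and 4 at day 14 (P14). A further 3 came from mice given recombinant mouse interleukin-22 (rmIl22) and 3 from mice given phosphate-buffered saline (PBS). The injections went into the peritoneal cavity on days 14 and 15 and the tissue was taken on day 16, with 0.1 µg of rmIl22 per g of body weight in 100 µL, or the same volume of PBS alone. In the labels' age field the rmIl22 mice stand at day 24 and the PBS mice at day 14, which goes against day 16 in the protocol. Sex, and whether a library held more than 1 mouse, were not given in the sources used here. The tissue was not dissected into layers, so the values mix epithelium with muscle, connective tissue, nerves and blood cells.

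Absorption of salt in the ileum rests on paired exchange at the brush border: a sodium-proton exchanger brings sodium in while a chloride-bicarbonate exchanger brings chloride in, and water follows. In the crypts the direction is turned round, with chloride taken up from the blood side by a cotransporter and let out into the lumen by the channel CFTR, which also passes bicarbonate. Guanylin and uroguanylin are secreted peptides that bind the receptor guanylate cyclase C on the luminal side, raise cyclic GMP, open CFTR and slow the sodium-proton exchanger NHE3, and PDZ scaffolds hold these proteins together at the membrane.

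Between 35.7 and 46.5 M reads per library fell on genes (median 42.7 M), as worked out from the deposited values, and a member had between 250 and 87118 reads in a library. Values are in TPM, a share of each library's transcripts after division by gene length, so levels of different genes can be set side by side. The 6 markers of epithelium in general summed to 8478 to 10760.4 TPM in the P24 libraries and 4988 to 6369 TPM in the P14 libraries, and to 5467 to 8973 TPM in the rmIl22 libraries and 6112 to 7156 TPM in the PBS libraries. The rmIl22 library 2 stood apart from the rest of its group, with 6.49% of genes more than 1 log2 unit away, against 0.917% to 3.44% in the other 13 libraries. Log2 fold changes of the members and counts of calls in the injection comparison are therefore given with and without it. Gata4, a transcription factor gene whose level is high in the upper small intestine and low in the last part of the ileum, also divided the libraries, and it was singled out after its values were seen. It stood at 0.0983, 15.8 and 0.177 TPM in the rmIl22 libraries, against 10.8, 13.8 and 17.4 TPM in the PBS libraries. In untreated mice it stood at 0.235, 1.36, 0.226 and 0.145 TPM at P24, against 0.119, 0.378, 6.57 and 7.51 TPM at P14. In a whole-tissue sample, fewer cells of a type and less RNA per cell cannot be told apart.

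**Figure D1:**
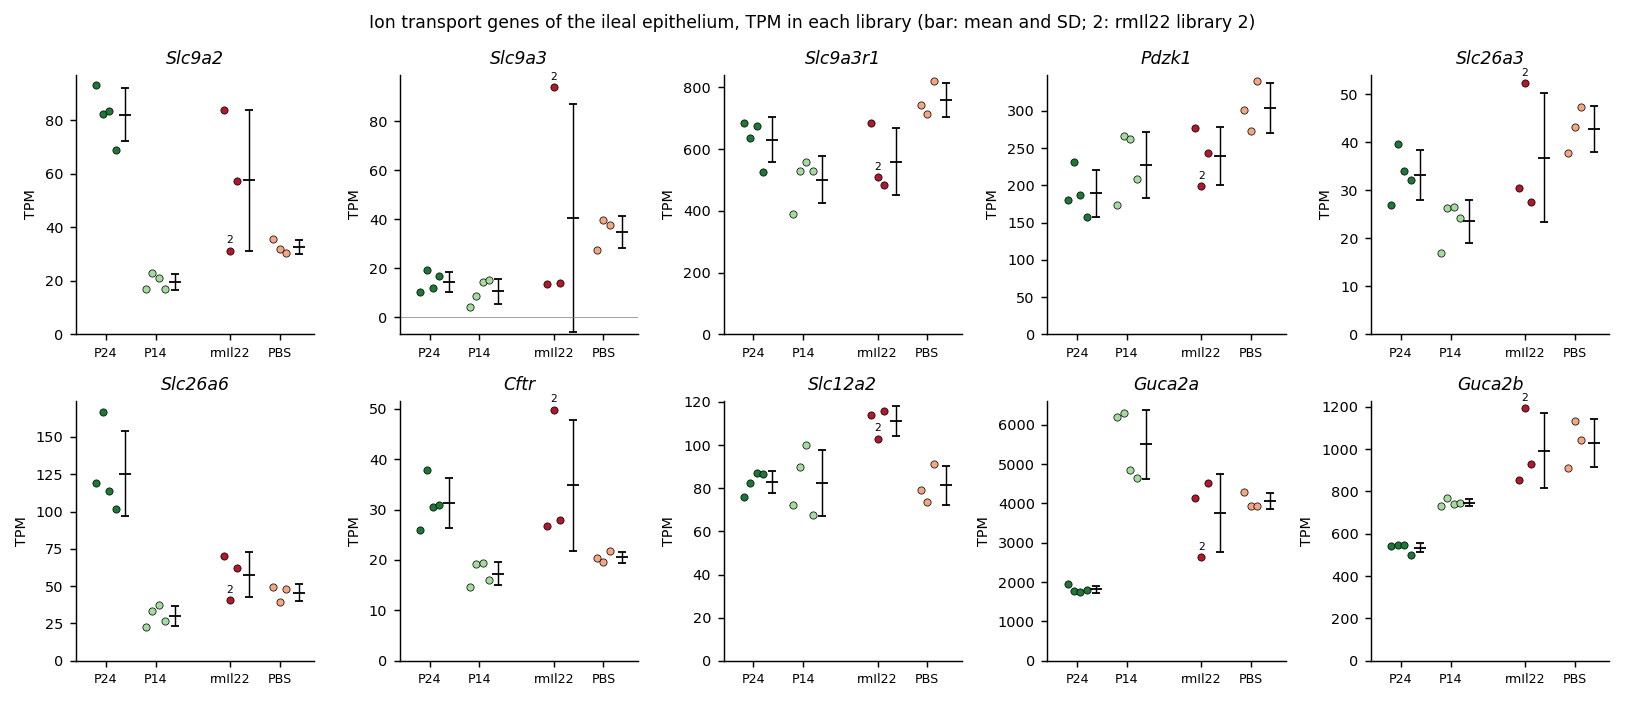
TPM of the 10 ion transport genes in each library (points; y axis in TPM), in the order P24, P14, rmIl22 and PBS on the x axis, with the mean and SD of each group beside its points. The P24 libraries lie above every P14 library for Slc9a2, Slc26a3, Slc26a6 and Cftr and below every one for Guca2a and Guca2b, and rmIl22 library 2 (marked 2) lies apart from libraries 1 and 3 for Slc9a3, Slc26a3, Slc26a6, Cftr, Guca2a and Guca2b.

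The age comparison asked how the tissue of weaned mice differs from that of suckling mice. Of the 10 transport genes, 4 rose at P24 (Slc9a2, Slc26a3, Slc26a6 and Cftr), 2 fell (Guca2a and Guca2b) and 4 did not pass the test (limma with Benjamini-Hochberg adjustment over 14651 genes, adjusted p under 0.05). Over all genes tested, 14.6% were called higher and 43.7% lower, so the members' 4 of 10 higher and 2 of 10 lower stood against a background that leaned towards lower values. The same 6 genes had groups that did not overlap, where 13% of all genes lay entirely higher and 39.4% entirely lower. The median log2 fold change was 0.42 over the 10 members and -0.25 over all genes tested. When each library was scaled so that the median gene kept its TPM, the median over all genes moved to 0.02, 29.5% of genes were higher and 28.3% lower, and the members' counts became 6 higher and 1 lower. A voom fit on reads recovered from the TPM gave the members the same counts, 6 and 1, beside 29% of all genes higher and 29.1% lower. Scaling to the 6 epithelial markers, of which 3 themselves rose and 1 fell at P24, moved the median of all genes to -0.69, with 6.59% of genes higher and 74.8% lower, and the members' counts became 3 higher and 4 lower.

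Markers of other cell types moved with age as well. All 4 Paneth cell markers rose (summed level 20167 to 21194 TPM at P24, against 3834 to 5587 TPM at P14), as did 4 of 7 enterocyte markers, with 1 lower (15981 to 22012 TPM at P24, against 9793 to 15738 TPM at P14). Of the fibroblast markers 4 of 5 fell (357 to 487 TPM at P24, against 597 to 1189.7 TPM at P14), of the endothelial markers 4 of 4 (20.9 to 26.3 TPM at P24, against 37.6 to 57.7 TPM at P14) and of the enteric neuron and glia markers 6 of 6 (7.68 to 11 TPM at P24, against 36.9 to 50.1 TPM at P14). Not all lists outside the epithelium fell. Of 5 smooth muscle markers 2 rose and 0 fell (1559 to 2360.3 TPM at P24, against 1261 to 2457 TPM at P14). Of 4 tested lymphocyte markers 1 rose and 0 fell (10.1 to 67.1 TPM at P24, against 3.6 to 13.7 TPM at P14, summed over 5 genes). No gene of these lists was at 0 in every library of either age, and their part in the members' results was not tested.

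Of the sodium-proton exchanger genes among the members, Slc9a2 rose and Slc9a3 did not pass the test. Slc9a2, which encodes NHE2 (ENSMUSG00000026062.12, mm10 chromosome 1, 40680574 to 40769273, plus strand, protein coding), had 93.2, 82.2, 83.6 and 69.0 TPM at P24, against 16.9, 22.9, 21.2 and 17.0 TPM at P14. Even the lowest P24 library was 3.01 times the highest P14 library. Its log2 fold change was 2.02 (SE 0.13, limma adjusted p = 1.16e-07), a 4.06-fold higher level, and 2.32 after median scaling. Slc9a3, which encodes NHE3, the main sodium-absorbing exchanger of the small intestine (chromosome 13, 74121457 to 74169442, plus strand), had 10.4, 19.1, 11.9 and 16.9 TPM at P24, against 4.25, 8.82, 14.2 and 15.4 TPM at P14. The groups overlapped, with P14 libraries 4 and 5 inside the P24 range and P14 libraries 1 and 2 below it. Its log2 fold change of 0.51 did not pass (95% interval -0.19 to 1.21, limma adjusted p = 0.187), and the interval leaves room for a rise of more than 2-fold as well as for no change. Without P14 library 1, the lowest, it was 0.17 (adjusted p = 0.531), and with epithelial scaling 0.04 (adjusted p = 0.92). The P14 libraries with the higher Slc9a3 were also those with the higher Gata4, and the part of Gata4-rich tissue in this result was not tested.

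Neither PDZ scaffold passed the test at P24. Slc9a3r1, which encodes NHERF1, a scaffold that ties NHE3 and CFTR to the actin linker ezrin (chromosome 11, 115163341 to 115181181, plus strand), had 683, 635, 676 and 525 TPM at P24, against 389, 529, 558 and 528 TPM at P14. The lowest P24 library fell inside the P14 range. Its log2 fold change was 0.34 (95% interval 0.04 to 0.63, limma adjusted p = 0.0517), and it passed after median scaling, at 0.65 (adjusted p = 0.00558), while scaling to epithelial markers turned it to -0.18 (adjusted p = 0.165). It also passed without P14 library 4 (0.39, adjusted p = 0.0462) or without P24 library 8 (0.42, adjusted p = 0.0229). Pdzk1, which encodes NHERF3, a scaffold of the same exchangers (chromosome 3, 96829284 to 96870926, plus strand), had 180.4, 232, 187 and 158 TPM at P24, against 174, 266, 262 and 209 TPM at P14, with a log2 fold change of -0.26 (limma adjusted p = 0.168). For Pdzk1 the value was 0.05 after median scaling (adjusted p = 0.805), and it passed as lower with epithelial scaling (-0.78, adjusted p = 0.00018) and without P14 library 1 (-0.38, adjusted p = 0.0382). Of its 50-base stretches, 34.6% also lie in transcripts of overlapping genes, among them Cd160 and Gpr89 on the other strand, so its level is uncertain. No other member shared more than 1.07% of its stretches with another gene.

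Of the chloride-bicarbonate exchangers, both rose, and by very different amounts. Slc26a6, which encodes PAT1, an apical exchanger that also carries oxalate (chromosome 9, 108853283 to 108913049, plus strand), had 119, 167, 114 and 102 TPM at P24, against 22.4, 33.1, 37.3 and 26.4 TPM at P14. The ranges lay far apart, and its log2 fold change was 2.04 (SE 0.18, limma adjusted p = 2.09e-06), a 4.11-fold higher level. Slc26a3, which encodes DRA, the exchanger whose loss in humans causes congenital chloride diarrhoea (chromosome 12, 31390871 to 31473917, plus strand), had 27.0, 39.6, 34.1 and 32.2 TPM at P24, against 17.0, 26.2, 26.6 and 24.3 TPM at P14. The lowest P24 library exceeded the highest P14 library only narrowly. Its log2 fold change was 0.49 (SE 0.15, limma adjusted p = 0.0169) and 0.79 after median scaling, and scaling to epithelial markers gave -0.01 (adjusted p = 0.958).

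The chloride channel gene of the secretory route rose, and the gene of its basolateral partner did not pass the test. Cftr (chromosome 6, 18170687 to 18322768, plus strand) had 26.0, 37.9, 30.4 and 30.8 TPM at P24, against 14.7, 19.2, 19.3 and 16.0 TPM at P14. No library of one age entered the range of the other, and the log2 fold change was 0.82 (SE 0.13, limma adjusted p = 0.000254), or 1.11 after median scaling and 0.32 with epithelial scaling (adjusted p = 0.0393). Slc12a2, which encodes NKCC1, the cotransporter that loads the cell with chloride from the blood side (chromosome 18, 57878678 to 57946821, plus strand), had 75.8, 82.5, 87.1 and 86.6 TPM at P24, against 72.4, 89.9, 100.0 and 67.4 TPM at P14. The P24 values sat within the P14 range, and the log2 fold change was 0.03 (95% interval -0.25 to 0.30, limma adjusted p = 0.872). The call for Slc12a2 depended on the scaling, with 0.33 after median scaling (adjusted p = 0.00751) and -0.49 with epithelial scaling (adjusted p = 0.00117). Of 6 crypt and stem cell markers, 0 rose and 2 fell on TPM as deposited, where 43.7% of all genes were lower. After median scaling and by voom 3 of them rose and 1 fell. The shares of all genes higher and lower were then 29.5% and 28.3%, and 29% and 29.1%. The 6 markers summed to 568 to 661 TPM at P24 and 371 to 802 TPM at P14. Their part in the Cftr result was not tested.

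Both guanylin peptide genes fell at P24, Guca2a by more than Guca2b. Guca2a had the highest TPM of the 10 members in each of the 14 libraries. Both are small genes of chromosome 4 that lie 17135 bases apart on opposite strands with 0 annotated genes between them. Guca2a, guanylin (ENSMUSG00000023247.2, 119637704 to 119639471, plus strand), had 1948, 1773, 1747 and 1794 TPM at P24, against 6203, 6312, 4852 and 4657 TPM at P14. Its P24 level was 0.333 of the P14 level, with a log2 fold change of -1.59 (SE 0.14, limma adjusted p = 2.2e-06) and -1.28 after median scaling. Guca2b, uroguanylin (ENSMUSG00000032978.14, 119656607 to 119658954, minus strand), had 539.7, 546, 545 and 501 TPM at P24, against 731, 769, 740.5 and 744 TPM at P14. The groups were tight and separate, with a log2 fold change of -0.49 (SE 0.09, limma adjusted p = 0.000709). Relative to the median gene the fall of Guca2b did not pass, at -0.18 (adjusted p = 0.203). Guca2a passed both under median scaling and under epithelial scaling.

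Sequence just upstream of the start was looked up for these neighbouring genes and for Slc26a3, the only other member with a match, in the RefSeq promoter table of build GRCm38.p6, which holds 8 of the 10 members. The 250 bases before the RefSeq start are given 5′ to 3′ on the gene's own strand, from chr4:119637482-119637731 for Guca2a (plus strand), chr4:119658946-119659195 for Guca2b (minus strand) and chr12:31437969-31438218 for Slc26a3 (plus strand). Capitals mark matches, on either strand, to a GATA motif (AGATAA or its complement TTATCT), an HNF1 core (GTTAAT or ATTAAC) or a STAT motif (TTCNNNGAA).
Guca2a: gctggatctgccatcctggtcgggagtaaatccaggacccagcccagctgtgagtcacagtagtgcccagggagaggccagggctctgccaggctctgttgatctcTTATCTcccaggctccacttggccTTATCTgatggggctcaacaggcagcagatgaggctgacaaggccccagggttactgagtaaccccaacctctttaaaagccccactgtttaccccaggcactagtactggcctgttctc
Guca2b: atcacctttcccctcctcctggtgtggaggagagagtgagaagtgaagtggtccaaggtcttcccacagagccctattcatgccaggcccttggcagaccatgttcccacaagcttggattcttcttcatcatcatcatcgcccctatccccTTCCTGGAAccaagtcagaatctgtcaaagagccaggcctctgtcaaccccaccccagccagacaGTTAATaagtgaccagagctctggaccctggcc
Slc26a3: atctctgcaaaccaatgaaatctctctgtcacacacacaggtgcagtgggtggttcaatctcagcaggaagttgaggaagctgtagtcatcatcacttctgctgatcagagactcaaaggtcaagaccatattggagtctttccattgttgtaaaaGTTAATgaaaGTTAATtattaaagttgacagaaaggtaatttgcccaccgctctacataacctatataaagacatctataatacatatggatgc
Guca2a holds 2 GATA matches, a motif found in 9.99% of the 32851 promoters of the table. Guca2b holds 1 HNF1 core, found in 6.43% of promoters, and 1 STAT match, found in 7.02%. Slc26a3 holds 2 HNF1 cores 4 bases apart. An HNF4 motif (CAAAGTCCA, in 0.384% of promoters) and a CDX motif (CAATAAA, in 4.2%) were found in none of the members' windows, and the windows of Slc9a3, Slc9a3r1, Pdzk1, Slc26a6 and Cftr held no match to any of the 5 motifs. The motifs do not overlap one another, and a match is a run of letters, not a measured binding site.

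**Figure D2:**
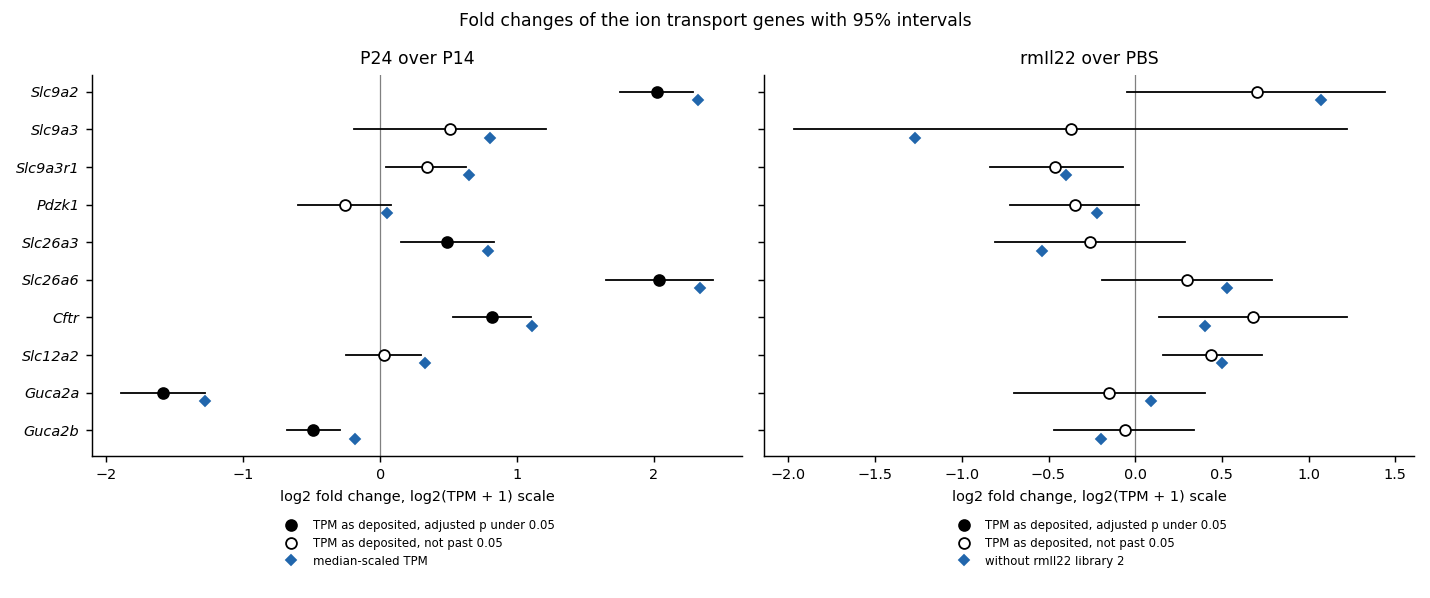
Log2 fold changes of the 10 genes on the log2(TPM + 1) scale (x axis), P24 over P14 on the left and rmIl22 over PBS on the right, with 95% intervals from limma; filled circles passed an adjusted p of 0.05. Blue diamonds give the value after median scaling (left) or without rmIl22 library 2 (right), where Slc9a3 moves to -1.27 and Slc9a2 to 1.07.

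Because a ratio of 2 genes in 1 library does not depend on how that library was scaled, 6 pairs were compared within libraries by a two-sided exact permutation test, for which 0.0286 is the smallest p that 4 against 4 libraries allow. Of the 6 ratios, 5 reached it (adjusted p = 0.0343 each over the 6, exact permutation test). Reaching it means that the libraries of the 2 ages did not overlap, and 52.4% of all single genes tested did not overlap either. The share among ratios of other gene pairs was not computed, and the ratios use the same values as the members' own tests. Slc9a3 fell relative to Slc9a2, with a ratio of 0.111 to 0.246 at P24 and 0.251 to 0.906 at P14. The ratio of Slc26a3 to Slc26a6 was 0.227 to 0.316 at P24 and 0.714 to 0.918 at P14, a log2 difference of -1.57. Cftr rose relative to Slc12a2, with a ratio of 0.343 to 0.459 at P24 and 0.193 to 0.238 at P14. Slc9a3r1 rose relative to Pdzk1, with 2.74 to 3.79 at P24 and 1.99 to 2.53 at P14, where the uncertainty of Pdzk1 carries over. Guca2a fell relative to Guca2b, with 3.20 to 3.61 at P24 and 6.26 to 8.48 at P14, a log2 difference of -1.10. The ratio of absorptive Slc9a3 to secretory Cftr overlapped, at 0.391 to 0.55 at P24 and 0.29 to 0.962 at P14 (p = 0.514, exact permutation test).

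**Figure D3:**
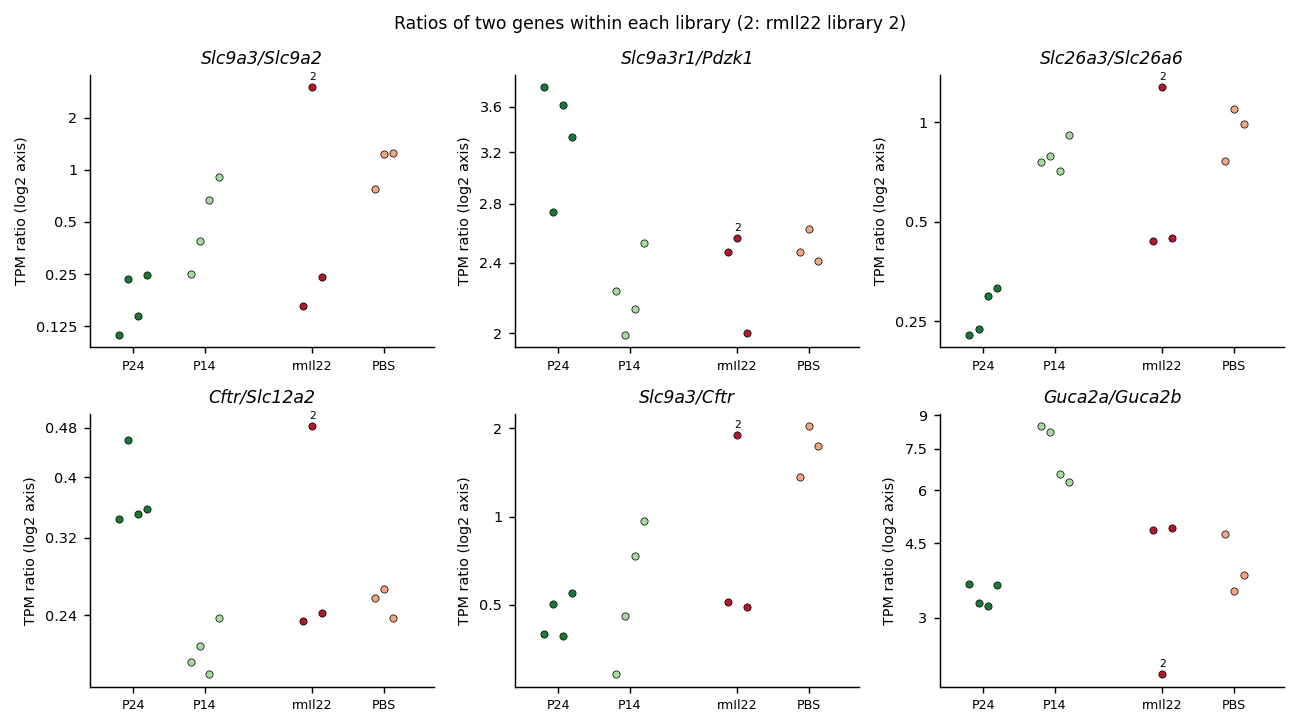
Ratio of the TPM of 2 genes within each library (log2 y axes), by group in the order P24, P14, rmIl22 and PBS. The P24 and P14 libraries do not overlap in 5 of the 6 ratios, and rmIl22 library 2 lies far from libraries 1 and 3 in the ratios of Slc9a3 to Slc9a2, Slc26a3 to Slc26a6, Cftr to Slc12a2, Slc9a3 to Cftr and Guca2a to Guca2b.

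Genes that work with these transporters changed in both directions at P24, and the counts of each list stand beside 14.6% of all genes higher and 43.7% lower. Among 8 tested genes of sodium entry and the sodium pump, 4 rose and 2 fell. Slc5a1, the sodium-glucose cotransporter SGLT1, had 541, 683, 657 and 461 TPM at P24, against 101, 161, 177 and 162 TPM at P14 (log2 fold change 1.97, limma adjusted p = 3.31e-06). The pump subunit Atp1b1 (1.44) rose as well, while another pump subunit, Atp1b3 (-0.46), and the epithelial sodium channel subunit Scnn1a (-0.59, 1.24 ± 0.146 TPM in P24 mice and 2.39 ± 0.48 TPM in P14 mice, SD, n = 4 each) fell. Among 10 scaffolds and kinases of the sodium-proton exchangers, 4 rose and 2 fell. The lysophosphatidic acid receptor Lpar5 (0.94), the kinase Sgk2 (0.77) and the actin linker Ezr (0.59) rose, and the scaffold Slc9a3r2, NHERF2, fell (-0.44), a call that was lost after median scaling (-0.16, adjusted p = 0.197) and by voom (-0.18, adjusted p = 0.179). The largest log2 fold change of that list was the fall of Sgk3, a kinase of the SGK family, which had 2.15, 2.08, 1.71 and 2.32 TPM at P24, against 11.5, 13.8, 13.4 and 11.4 TPM at P14 (-2.14, limma adjusted p = 2.78e-08).

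The receptor side of the guanylin peptides fell too. Gucy2c, the guanylate cyclase C that binds both peptides, had 166, 201, 165 and 151 TPM at P24, against 239.6, 329, 316 and 219.7 TPM at P14 (log2 fold change -0.68, limma adjusted p = 0.00195, and -0.37 after median scaling, adjusted p = 0.0272). Prkg2, the membrane-bound cyclic GMP-dependent kinase that acts on CFTR and NHE3, had 28.5, 30.5, 26.1 and 26.3 TPM at P24, against 93.4, 119, 123 and 101 TPM at P14 (-1.92, limma adjusted p = 5.19e-08). Ligand, receptor and kinase genes were thus all called lower at P24 on TPM as deposited, and of these Guca2b was not called after median scaling. In the list of 8 tested genes of guanylin and cyclic nucleotide signalling, 2 rose and 3 fell: the protein kinase A subunit Prkaca was the third that fell (-0.45), and the receptors Vipr1 (0.44) and Ptger4 (0.38), which act through cyclic AMP, rose, though with epithelial scaling these last values were -0.06 and -0.11. After median scaling and by voom 5 genes of the list were higher and 2 lower, and Prkaca did not pass (-0.14, adjusted p = 0.188, after median scaling). With epithelial scaling 0 were higher and 6 lower, beside 6.59% and 74.8% of all genes. The shares of all genes higher and lower were 29.5% and 28.3% after median scaling, and 29% and 29.1% by voom.

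Of 10 tested chloride and potassium channel and cotransporter kinase genes, 4 rose and 1 fell. Clcn2, a chloride channel of the epithelium, had 33.9, 42.9, 32.7 and 32.1 TPM at P24, against 7.4, 8.32, 8.9 and 7.57 TPM at P14 (log2 fold change 2.00, limma adjusted p = 5.07e-08). Kcne3, the subunit that keeps the basolateral potassium channel of secreting cells open, rose by 1.37 and the secreted goblet cell protein Clca1 by 0.97, while the calcium-activated channel Ano1 fell by 0.35, a call kept in 1 of the 8 fits that left out a library and lost after median scaling (-0.07, adjusted p = 0.527). Of 10 tested bicarbonate genes, 6 rose and 2 fell. Car9, a carbonic anhydrase, rose (1.79), and Car13, of the same family (-0.64), and the basolateral anion exchanger Slc4a2 (-0.78) fell. Of 6 aquaporins, 2 rose and 1 fell, among them Aqp7, a water and glycerol channel (0.38, kept in 4 of the 8 fits that left out a library, and -0.08 with epithelial scaling).

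For 4 of these genes the mean of 1 age was under 1 TPM, so that they entered the test through the other age and their fold changes depend on the pseudocount. They are given as levels. Car4, a membrane carbonic anhydrase, had 66.2, 66.6, 67.4 and 59.2 TPM at P24, against 0.473, 0.318, 0.322 and 0.228 TPM at P14. Car1, also a carbonic anhydrase, had 40.4, 4.17, 35.6 and 78.6 TPM at P24, against 0.102, 0.0358, 0.039 and 1.57 TPM at P14. The water and glycerol channel Aqp3 had 3.54, 3.7, 2.12 and 2.14 TPM at P24, against 0.462, 0.636, 0.799 and 0.401 TPM at P14. The water channel Aqp8 was the other way round, with at most 0.0299 TPM in a P24 library and 1.55 to 2.52 TPM in the P14 libraries. Leaving out these 4, 19 of the 48 tested genes of the lists rose and 10 fell, beside 14.6% and 43.7% of all genes. With them the counts were 22 and 11 of 52, and 31 and 8 by voom, beside 29% and 29.1% of all genes. With epithelial scaling 11 were higher and 26 lower, beside 6.59% and 74.8% of all genes.

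**Figure D4:**
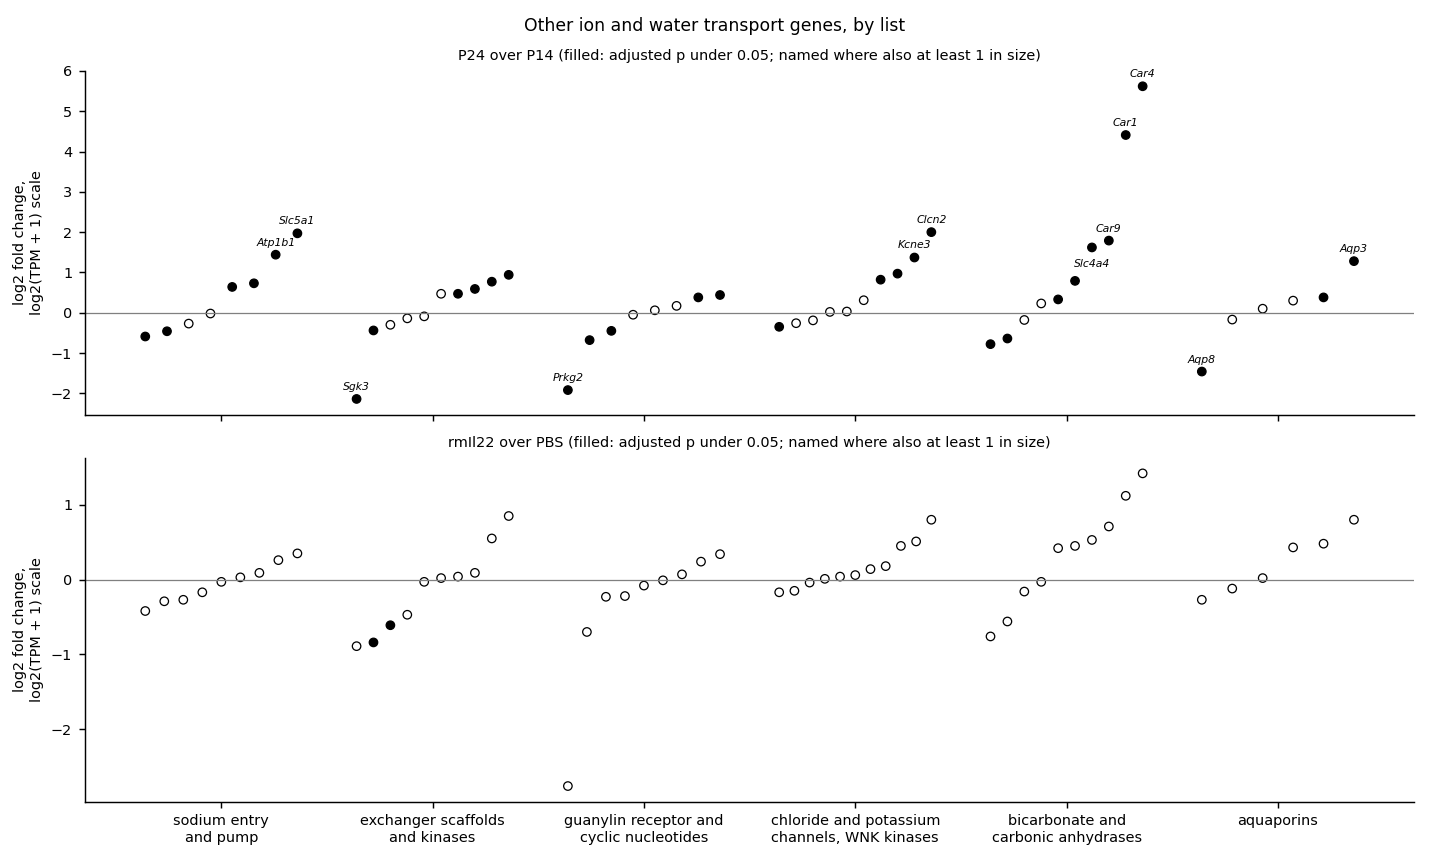
Log2 fold changes (y axis, log2(TPM + 1) scale) of other ion and water transport genes in 6 lists along the x axis, each dot a gene, sorted within its list; P24 over P14 above and rmIl22 over PBS below. Filled dots passed an adjusted p of 0.05: 33 genes in the age comparison and 2, Sgk3 and Chp2, in the injection comparison.

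The injection comparison asked what rmIl22 changed before weaning. None of the 10 transport genes passed the test (limma, Benjamini-Hochberg over 14456 genes), where 0.443% of all genes were called higher and 2.25% lower. At an unadjusted p under 0.05 there were 3, Cftr and Slc12a2 higher and Slc9a3r1 lower, against 15.5% of all genes. The same 3 genes had groups that did not overlap, against 5.62% of all genes entirely higher and 15.4% entirely lower. After median scaling 1 member was called, Slc12a2 (higher; 0.491% of all genes higher and 1.56% lower), and voom called it too (0.519% of all genes higher and 1.71% lower). Without rmIl22 library 2, 1 member was called higher (Slc9a2) and 2 lower (Slc9a3 and Slc26a3), where 3.14% of all genes were higher and 5.91% lower.

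The secretory genes stood higher in all rmIl22 libraries than in any PBS library. Cftr had 26.7, 49.8 and 28.0 TPM after rmIl22, against 20.3, 19.5 and 21.7 TPM after PBS. Its log2 fold change of 0.68 (95% interval 0.14 to 1.22) did not pass (limma adjusted p = 0.201), nor did the 0.40 without library 2 (adjusted p = 0.0709). Slc12a2 had 114, 103 and 116 TPM after rmIl22, against 79.2, 73.6 and 91.3 TPM after PBS. The SD was 6.84 TPM after rmIl22 and 9.02 TPM after PBS (n = 3 each). Its log2 fold change of 0.44 (95% interval 0.16 to 0.73, limma adjusted p = 0.116) became 0.52 with median scaling (adjusted p = 0.0363) and 0.52 with voom (adjusted p = 0.0413). Without library 2 it was 0.50 (adjusted p = 0.0508). The authors' deposited table of this comparison lists 1102 genes with adjusted p up to 0.00999, and of the members it holds Cftr, with a log2 fold change of 0.83 (adjusted p = 0.00861), and Slc12a2, with 0.48 (adjusted p = 1.6e-05). It holds none of the other 8 members.

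The exchangers split with the libraries. Slc9a2 had 83.9, 31.3 and 57.3 TPM after rmIl22, against 35.5, 31.8 and 30.3 TPM after PBS (log2 fold change 0.70, limma adjusted p = 0.362). Slc9a3 had 13.7, 94.1 and 13.8 TPM after rmIl22, against 27.5, 39.6 and 37.8 TPM after PBS (-0.37, 95% interval -1.97 to 1.22, limma adjusted p = 0.879). In rmIl22 libraries 1 and 3 Slc9a2 was above and Slc9a3 below every PBS library. Library 2 showed the reverse for Slc9a3, with the highest level of all 14 libraries. Without library 2 the log2 fold changes were 1.07 for Slc9a2 (limma adjusted p = 0.00796) and -1.27 for Slc9a3 (adjusted p = 0.00336). Slc26a3 had 30.5, 52.3 and 27.6 TPM after rmIl22, against 37.8, 43.1 and 47.4 TPM after PBS (-0.26, limma adjusted p = 0.714), and -0.54 without library 2 (adjusted p = 0.0458). Slc26a6 had 70, 40.7 and 62.0 TPM after rmIl22, against 49.4, 39.1 and 48.1 TPM after PBS (0.30, limma adjusted p = 0.599), and 0.53 without library 2 (adjusted p = 0.0566).

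The same division of the rmIl22 libraries appeared in genes whose level changes along the intestine, all chosen after their values were seen. Gata4 was near 0 in libraries 1 and 3 and at 15.8 TPM in library 2, where the PBS libraries had 10.8 to 17.4 TPM. Fabp6, the bile acid binding protein of the ileum, had 9878, 1663 and 7836 TPM after rmIl22, against 2983, 1186 and 214 TPM after PBS, and Fabp1, a fatty acid binding protein highest in the upper small intestine, had 2.34, 699 and 2.32 TPM after rmIl22, against 73.2, 1570.1 and 1029 TPM after PBS. Among untreated mice Gata4 was likewise higher in P14 libraries 4 and 5 than in 1 and 2, the order Slc9a3 followed. Fabp6 also differed with age, at 14369.7, 21407, 16875 and 14893 TPM at P24. In P14 libraries 1, 2, 4 and 5 it had 346, 1181, 395 and 605 TPM. Of the 5 markers of colon, Car1 reached 1738 TPM and Aqp8 98.1 TPM in rmIl22 library 1, with Hoxb13 at 0 in each injected library. The colon list summed to 3.76 to 1842 TPM in the rmIl22 libraries and 4.38 to 9.03 TPM in the PBS libraries. The part of these differences in the results for Slc9a2, Slc9a3, Slc26a3 and Slc26a6 was not tested, and Gata4 cannot be told apart from the injection where libraries 1 and 3 alone are set against PBS.

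**Figure D5:**
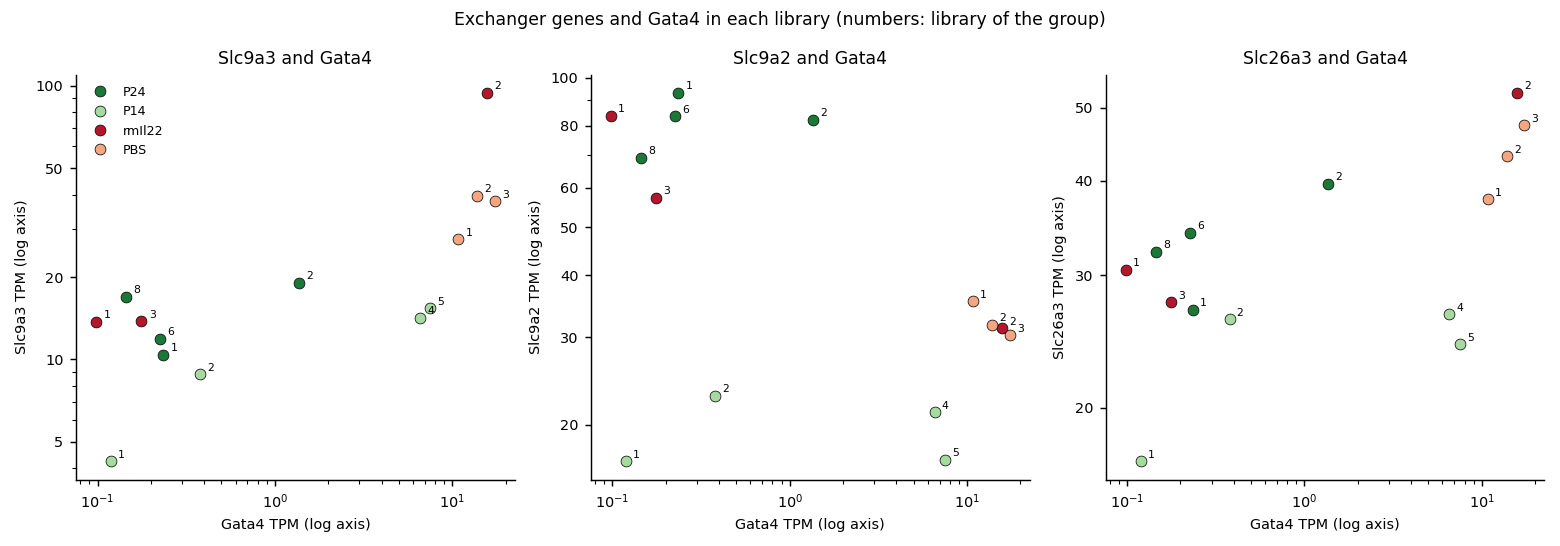
TPM of Slc9a3, Slc9a2 and Slc26a3 (y axes) against Gata4 TPM (x axis) in the 14 libraries, both axes on log scales; numbers name the library within its group. Along the Gata4 axis rmIl22 library 2 lies beside the PBS libraries, at 15.8 TPM, and rmIl22 libraries 1 and 3 lie near the P24 libraries, at 0.0983 and 0.177 TPM. Slc9a3 in rmIl22 library 2, at 94.1 TPM, lies above the PBS libraries, at 27.5 to 39.6 TPM. P14 libraries 1 and 2 are low in Gata4 too, at 0.119 and 0.378 TPM. Slc9a2 is 16.9, 22.9, 21.2 and 17.0 TPM in P14 libraries 1, 2, 4 and 5, and 83.9 and 57.3 TPM in rmIl22 libraries 1 and 3. The P14 and rmIl22 mice differ in age and in handling, and no test was made between them.

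The scaffold genes and the guanylin peptide genes gave no call. Slc9a3r1 had 684, 509 and 485 TPM after rmIl22, against 744, 715 and 819.8 TPM after PBS, so that each rmIl22 library was lower than each PBS library, with a log2 fold change of -0.46 (95% interval -0.84 to -0.07, limma adjusted p = 0.238) and -0.40 without library 2 (adjusted p = 0.195). Pdzk1 had 277, 199 and 243 TPM after rmIl22, against 301, 273 and 339.8 TPM after PBS (-0.35, limma adjusted p = 0.353), and -0.22 without library 2 (adjusted p = 0.372). Guca2a had 4135, 2636 and 4523 TPM after rmIl22, against 4304, 3938 and 3944 TPM after PBS (-0.15, 95% interval -0.70 to 0.40, limma adjusted p = 0.857), and 0.09 without library 2 (adjusted p = 0.698). Guca2b had 855, 1193 and 928 TPM after rmIl22, against 909, 1133 and 1044 TPM after PBS (-0.06, 95% interval -0.47 to 0.34, limma adjusted p = 0.927), and -0.20 without library 2 (adjusted p = 0.414). In library 2 Guca2a was the lowest and Guca2b the highest of the injected libraries. Their ratio was 2.21 there, against 4.84 and 4.88 in rmIl22 libraries 1 and 3 and 3.48 to 4.74 after PBS. The rmIl22 and PBS libraries overlapped in each of the 6 ratios, where 3 against 3 libraries allow no exact permutation p below 0.1.

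Among the 55 tested genes of the other transport lists, 2 fell after rmIl22 and 0 rose (limma), with 20 at an unadjusted p under 0.05, beside 0.443% of all genes higher, 2.25% lower and 15.5% at that unadjusted p. By voom 3 were higher and 0 lower, beside 0.519% and 1.71% of all genes. Without library 2 there were 5 higher and 5 lower, beside 3.14% and 5.91% of all genes. Those higher without it were Chp1 (0.75), Sgk2 (1.00), Clcn2 (0.96), Slc4a4 (0.52) and Car12 (0.89), and those lower were Chp2, Sgk3, Prkg2 (-0.93), Adora2b (-3.44) and Car13 (-0.95), named after their values were seen. Both genes that fell with all libraries belong to the list of scaffolds and kinases of the sodium-proton exchangers. Chp2, a calcineurin homologous protein that binds these exchangers, had 309, 324 and 317 TPM after rmIl22, against 498, 458 and 496 TPM after PBS (log2 fold change -0.61, limma adjusted p = 0.0347). Sgk3 had 6.4, 9.07 and 7.55 TPM after rmIl22, against 14.6, 13.1 and 15.7 TPM after PBS (-0.84, limma adjusted p = 0.0314). All 3 rmIl22 libraries lay below every PBS library for both genes. Neither passed after median scaling, at -0.54 (adjusted p = 0.0728) for Chp2 and -0.78 (adjusted p = 0.0686) for Sgk3. Of the 6 fits that left out a library, each gene was called in 1, that without rmIl22 library 2 (-0.62, adjusted p = 0.0109, for Chp2 and -0.96, adjusted p = 0.00434, for Sgk3), and in the others the adjusted p reached 0.171 for both. The bicarbonate list had 10 tested genes with a median log2 fold change of 0.44, against -0.05 over all genes. None of the 10 passed, and 6 had an unadjusted p under 0.05. By voom 2 were higher, and without library 2 there were 2 higher and 1 lower. Among the 55 genes, Car4 and Aqp3 had PBS means under 1 TPM and entered the test through the rmIl22 libraries. Car4 had 3.46, 12.2 and 1.48 TPM after rmIl22, against 1.07, 1.16 and 0.689 TPM after PBS. Aqp3 had 1.97, 1.28 and 1.97 TPM after rmIl22, against 0.715, 0.968 and 1.2 TPM after PBS. Both are among the 20 at an unadjusted p under 0.05, and Car4 is among the 6. Leaving them out, 53 genes were tested, with 0 higher and 2 lower.

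The age and injection effects were set against each other in a fit of all 14 libraries, since no library is shared between them. The difference, the P24 over P14 change minus the rmIl22 over PBS change, passed for 4 members, where 23.8% of 15702 genes passed. It was 1.32 for Slc9a2 (limma adjusted p = 0.0125), 0.79 for Slc9a3r1 (adjusted p = 0.0182), 1.74 for Slc26a6 (adjusted p = 0.00125) and -1.44 for Guca2a (adjusted p = 0.00131), all on the log2 scale. Without rmIl22 library 3 the value for Slc9a3r1 was 0.70 and did not pass (adjusted p = 0.0522). For Cftr the difference was 0.13 (SE 0.26, limma adjusted p = 0.743), with effects of 0.82 for age and 0.68 for rmIl22. The other members did not pass, with the values nearest to the threshold in Slc26a3 (0.75, adjusted p = 0.076) and Guca2b (-0.42, adjusted p = 0.0775). Without rmIl22 library 2 there were 6, the same 4 with Slc9a3, at 1.78 (adjusted p = 0.0147) against 0.89 with it, and Slc26a3, at 1.03 (adjusted p = 0.0057). The share of all genes that passed without that library was not computed, so the 6 have no background to stand beside.

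Across the 4 groups the order of levels differed by gene. Slc26a6 was highest at P24, at 126 ± 28.8 TPM (SD, n = 4), above rmIl22 (57.6 ± 15.1, n = 3) and PBS (45.5 ± 5.61, n = 3), which overlapped each other, and all of these lay above P14 (29.8 ± 6.67, n = 4). Guca2a ran the other way, with P24 lowest at 1815 ± 90.1 TPM, rmIl22 (3765 ± 997) and PBS (4062 ± 209.7) overlapping in between and P14 highest at 5506 ± 872 TPM. Slc12a2 was highest after rmIl22, at 111 ± 6.84 TPM, above P24 (83.0 ± 5.21), P14 (82.4 ± 15.2) and PBS (81.3 ± 9.02), whose ranges overlapped. Slc9a3 in PBS mice (35.0 ± 6.5 TPM) lay above the P24 libraries (14.6 ± 4.13), which overlapped P14 (10.7 ± 5.16). Guca2b was higher in both injected groups, with 992 ± 178 TPM after rmIl22 and 1028 ± 113 TPM after PBS, than in untreated mice of either age. The untreated and injected mice differ in age and in handling, so no test was made between them.

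The genes whose pattern over the 14 libraries was most like that of a member were listed by Pearson's r of log2(TPM + 1), among 15701 genes, as a description of libraries that share their groups and their scaling. Slc9a2 ran with B4galnt2 (r = 0.988), a glycosyltransferase gene, and Cyp4f40 (0.986). Slc26a6 ran with the brush border peptidase Anpep (0.983) and with Jak2 (0.982), and Guca2a with Serpina1c (0.983) and Sec22a (0.982). Slc9a3 ran with Clca3a1 (0.937) and Slc35f2 (0.935), and Slc9a3r1 with the microvillus actin bundler Espn (0.913) and Bach1 (0.896). Pdzk1 ran with H2-T3 (0.95) and Ush1c (0.941), which encodes another PDZ protein of the brush border. Cftr ran with Rassf4 (0.958) and Hs3st1 (0.956), Slc26a3 with Cideb (0.948) and Ckmt1 (0.935), Guca2b with Kbtbd13 (0.953) and Gm15703 (0.94), and Slc12a2 with Tmtc2 (0.921) and Dock1 (0.878). None of the 20 genes was itself a member.

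In the authors' deposited table of P24 against P14, the 4 members called higher here had log2 fold changes of 2.4 (Slc9a2), 0.82 (Slc26a3), 2.41 (Slc26a6) and 1.18 (Cftr). That deposited table also gives Slc9a3r1 0.66 (adjusted p = 8.18e-05) and Slc12a2 0.34 (adjusted p = 0.00013), and Guca2a -1.29 (adjusted p = 4.59e-16). It gives Guca2b -0.17 with an adjusted p of 0.405. For each of the 10 members the deposited value lies within 0.08 of the median-scaled one computed here.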

How the data were processed

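Per the labels' protocols, stranded libraries were prepared from total RNA of whole ileum after removal of ribosomal RNA. The tools in the submitters' processing notes are DESeq2 1.14, FastQC 0.11.2, HTSeq 0.6.1p1 and STAR 2.4.0f, with the genome mm10. Which annotation and which strand setting the authors counted with is not given in the sources used here. The authors deposited 1 table of TPM and 2 tables of log2 fold changes and adjusted p-values, written with decimal commas. In the TPM table, 27 of 46882 entries had date numbers for names and were left out; they held up to 0.0776% of a library's TPM.

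The columns of the P24 and P14 libraries carry numbers (1, 2, 6 and 8; 1, 2, 4 and 5) that are not the labels' replicate numbers, so they were assigned to a group only. The labels call the replicates biological, and p-values measure the spread between these libraries. No library was a copy of another: within groups, reads of any pair differed with a chi-square of 30.9 to 254.4 per degree of freedom.

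Members were tested on log2(TPM + 1) with limma 3.58.1 (R 4.3.3, trended prior), which understates the change of low genes. Each comparison used its own libraries and genes at or above 1 TPM in 4 or more (P24 against P14) or 3 or more libraries (rmIl22 against PBS). All 10 members were above 1 TPM in every library. Tests were two-sided, with Benjamini-Hochberg adjustment over all genes and a threshold of 0.05. The script was tested on simulated data. Whole reads (within 0.01) were recovered from the TPM of 31216 of 31216 genes above 0, and a voom fit on them called 8510 genes in the age comparison and 322 in the injection comparison. Alternatives were other pseudocounts, filters and scalings, 1 fit of all 14 libraries, robust variance, leaving out libraries and a replicate block.

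The text names all 10 members, up to 3 called genes per transport list and direction, and the 2 genes most correlated with each member; 1 gene that this rule names is not reported here. Members, lists and rules were chosen with earlier results of these data known. Gene positions come from the mm10 GENCODE annotation and promoter sequences from RefSeq. The correlations of same-numbered rmIl22 and PBS libraries' deviations were -0.07, 0.33 and -0.05, so the numbers were not taken to pair the mice.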

Additional observations from a re-analysis of the deposited data

Results flagged for a closer look

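For 4 of the 10 members the effect of age differed from that of the injection by a test of the difference itself, where 23.8% of 15702 genes passed. In log2 units these were Slc9a2 (1.32), Slc9a3r1 (0.79), Slc26a6 (1.74) and Guca2a (-1.44). Slc9a3r1 did not pass without rmIl22 library 3 (limma adjusted p = 0.0522).

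In 2 of the 32 sets of 4 libraries examined (10 members and 6 ratios at each age), 1 library lay far from the other three, where chance gives about 1 in 20. Guca2b at P24 was 501 TPM in library 8, against 539.7 to 546 TPM in the others, a gap of 0.857 of the whole range. The ratio of Cftr to Slc12a2 at P24 was 0.459 in library 2, against 0.343 to 0.356 in the others, a gap of 0.886 of the range. That library also had the highest Gata4 of the P24 libraries (1.36 TPM), whose part in this value was not tested.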

How the results depend on the processing

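Of 470 repeats of a single member's test under another setting, 429 gave the same direction and call, 20 gained the call, 3 lost it and 18 turned direction; the 96 repeats of the ratios turned no called difference (those that left out a library had no test of their own). The cause of these shifts was not tested. In the age comparison the members called higher stayed between 3 and 6, and those called lower were 1 with median scaling, 1 with voom (added after seeing the data) and 4 with epithelial scaling, against 2 as reported. Of all genes, 28.3%, 29.1%, 74.8% and 43.7% were lower in these settings, in that order. The shares higher were 29.5%, 29%, 6.59% and 14.6%. Epithelial scaling turned Slc9a3r1 (-0.18), Slc26a3 (-0.01) and Slc12a2 (-0.49); Pdzk1 turned with median scaling (0.05) and voom (0.04). Leaving out 1 library gave Slc12a2 -0.06 to 0.12.

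In the injection comparison, 1 member was called higher with median scaling and 1 with voom. Of all genes, 0.491% were higher and 1.56% lower with median scaling, and 0.519% and 1.71% with voom. Leaving out a library gave 0 to 1 members higher and 0 to 2 lower. The fit with 1 higher and 2 lower was that without rmIl22 library 2, where 3.14% of all genes were higher and 5.91% lower. The count over all genes, 389, was 98 with no filter, 211 with epithelial scaling, 1058 in the fit of 14 libraries and 4 (without PBS library 3) to 1309 (without rmIl22 library 2) on leaving out 1 library; without PBS library 1, PBS library 2, rmIl22 library 1 or rmIl22 library 3 it was 14, 119, 148 or 118. On leaving out a library, Slc9a3 ran from -1.27 to 0.08, Guca2a from -0.30 to 0.09 and Guca2b from -0.20 to 0.04, and Guca2b was 0.01 with median scaling and 0.02 with voom. For the difference of both effects, leaving out a library gave 3 to 6 members, Pdzk1 -0.04 to 0.20 and Cftr -0.02 to 0.41. The share of all genes that passed in those fits was not computed.

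With the replicate number as a block, 280 genes were called for rmIl22 against PBS and 0 members. The correlations of same-numbered libraries' deviations, -0.07, 0.33 and -0.05, lay within those of differently numbered ones, -0.34 to 0.4. The numbers were not taken as a pairing, and these correlations cannot tell whether same-numbered mice share anything else. No paired analysis was possible for P24 against P14 because the columns carry no replicate numbers of the labels.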
